A study of Sus scrofa with 16 samples.

Results

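Liver mRNA of pigs fed coconut oil (group C) was compared with that of pigs fed beef tallow (group B), and group B was the reference. Both fats are rich in saturated fatty acids, medium-chain ones prevailing in coconut oil and long-chain ones in beef tallow. The comparison asks how the liver differs between these fats. By the paper, the coconut oil feed also held a smaller share of unsaturated fatty acids, monounsaturated ones above all, than the beef tallow feed. Chain length and total saturation therefore cannot be told apart here. The 11 libraries were chosen by their labelled diet alone, 6 from group C (3 gilts and 3 barrows) and 5 from group B (2 gilts and 3 barrows), out of 16 in the series. All pigs were crosses of (Polish Landrace x Polish Large White) sows with (Duroc x Pietrain) boars, were penned singly on straw and were fattened from about 60 to 118 kg on diets alike in energy and protein. The fat in the feed was the only planned difference between the groups, and 1 library was made per pig from the 3′ ends of liver mRNA.

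The liver takes up dietary fatty acids, burns or stores them, makes cholesterol and turns it into bile acids. Hepatocytes also make most plasma proteins, among them the acute phase proteins, whose output rises when inflammatory cytokines or bacterial products reach the liver. Proteins bound for secretion fold in the endoplasmic reticulum (ER), where the unfolded protein response (UPR) adjusts the supply of chaperones to the load. Sterol synthesis is governed by SREBP transcription factors, and fatty acid oxidation largely by PPAR alpha.

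Between 705669 and 1767671 reads per pig fell on genes, with a median of 983963 in group B and 1183817.5 in group C, and 9558 to 10994 genes per pig had more than 1 read. Levels are given as CPM, counts per 1000000 reads on the genes tested, with library sizes scaled by TMM to correct for composition. Hepatocyte markers summed to between 91136 and 234282 CPM. The 4 adipocyte markers matched to a gene summed to between 1.33 and 15.9 CPM. Among these, LEP had 0 reads over the 11 pigs, PLIN1 had 3 and ADIPOQ 14. On the first principal component, which held 28.0% of the variance, pig 3 of group B lay at 58.0 and the other pigs between -20.6 and 15.7. Pig 3 of group B also had the lowest hepatocyte marker sum, 91136 CPM, the next lowest being 130141 CPM. Of its reads, 33.2% aligned to several places, against 19.3 to 22.8% in the rest of group B. That share was 38.1% in pig 3 of group C, which lay at -20.6. The cause was not tested. Values without pig 3 of group B are therefore given where they bear on a result. Since whole liver was sequenced, fewer cells of a type and less RNA per cell cannot be told apart in any value below.

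Of 6812 genes tested with the quasi-likelihood test of edgeR, 4 were past an adjusted p of 0.05 (0.0587%), and all 4 fell in group C. They were LITAF, ITIH4, PID1 and LBP. No gene rose past that threshold. Before adjustment, 780 genes had p under 0.05, of which 423 were lower in group C (6.21% of the genes tested) and 357 higher (5.24%). In 59 genes every pig of group C lay below every pig of group B (0.866%), and in 41 every pig lay above (0.602%). The log2 fold changes, group C against group B, were centred at -0.0045, with 3435 genes below 0 and 3377 above.

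**Figure D1:**
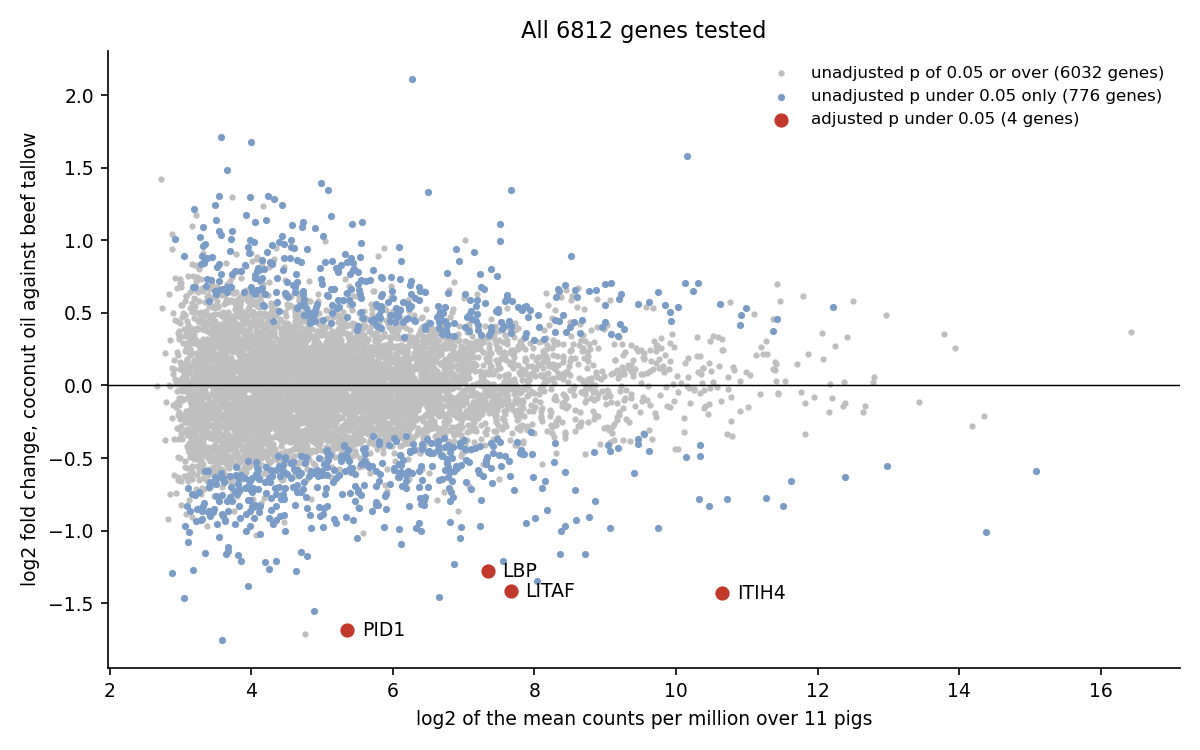
The log2 fold change of group C against group B (vertical axis) is plotted against the log2 mean CPM over the 11 pigs (horizontal axis) for each of the 6812 genes tested. The 4 genes past the adjusted threshold (red, named) all lie below 0, between -1.68 and -1.28, while the 776 genes with only an unadjusted p under 0.05 (blue) lie on both sides.

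LITAF, the lipopolysaccharide-induced TNF factor, is a small protein of late endosomal and lysosomal membranes (ENSSSCG00000032381, chromosome 3 from 31482605 to 31576211 in the RefSeq annotation of Sscrofa11.1). Its level was 329, 255, 304, 351 and 299 CPM in pigs 1 to 5 of group B. In group C it ran from 91.3 to 131 CPM, with a median of 117. The pigs of group C clustered closely, and all lay well below the lowest pig of group B. The log2 fold change was -1.41 (SE 0.15, edgeR adjusted p = 0.000322), and it stayed between -1.47 and -1.36 with any 1 pig left out.

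ITIH4 encodes inter-alpha-trypsin inhibitor heavy chain 4, known in pigs as the major acute phase protein (ENSSSCG00000011453, chromosome 13 from 34928455 to 34948250). The 5 pigs of group B had 2074, 2230, 2078, 3583 and 2272 CPM. Group C ran from 644 to 1217 CPM with a median of 854. Pig 4 stood high within group B, and the groups did not overlap. The mean was 2447 ± 641 (SD, n = 5) in group B and 909 ± 212 (SD, n = 6) in group C, a log2 fold change of -1.43 (SE 0.20, edgeR adjusted p = 0.00538). Without pig 4 of group B it was -1.25.

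PID1, an adaptor with a phosphotyrosine interaction domain that is known to dampen insulin signalling in fat and muscle cells, lies on chromosome 15 from 130080821 to 130215548 (ENSSSCG00000035058). It had 73.9, 68.0, 51.9, 78.7 and 59.2 CPM in group B and between 8.52 and 32.2 CPM, median 20.3, in group C. The 6 coconut oil pigs were thus all lower than the 5 fed beef tallow. Group C differed from group B by -1.68 on the log2 scale (SE 0.25, edgeR adjusted p = 0.00717). PID1 had the fewest reads of the 4 genes, 521 over the 11 pigs.

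LBP encodes the plasma protein that binds bacterial lipopolysaccharide and hands it to CD14 (ENSSSCG00000028758, chromosome 17 from 41398935 to 41429467). Group B had 201, 212, 265, 308 and 204 CPM, and group C ran from 75.9 to 150 CPM with a median of 89.7. Pig 4 of group C stood above the other 5 of its group but below every pig of group B. The log2 fold change was -1.28 (SE 0.19, edgeR adjusted p = 0.00887). Its partner CD14 averaged 231 ± 55.3 CPM in group B and 206 ± 10.4 CPM in group C, a log2 fold change of -0.17 (SE 0.16) with an adjusted p of 0.725.

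The 4 genes were lower in group C in gilts and in barrows alike. Computed as the log2 ratio of the means after adding 0.5 CPM to each, the difference in gilts and in barrows was -1.56 and -1.28 for LITAF, -1.23 and -1.53 for ITIH4, -1.55 and -1.84 for PID1, and -1.42 and -1.13 for LBP. No gene passed an adjusted p of 0.05 in edgeR's test of the interaction between diet and sex (240 genes had an unadjusted p under 0.05, and this model was fitted with edgeR only).

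**Figure D2:**
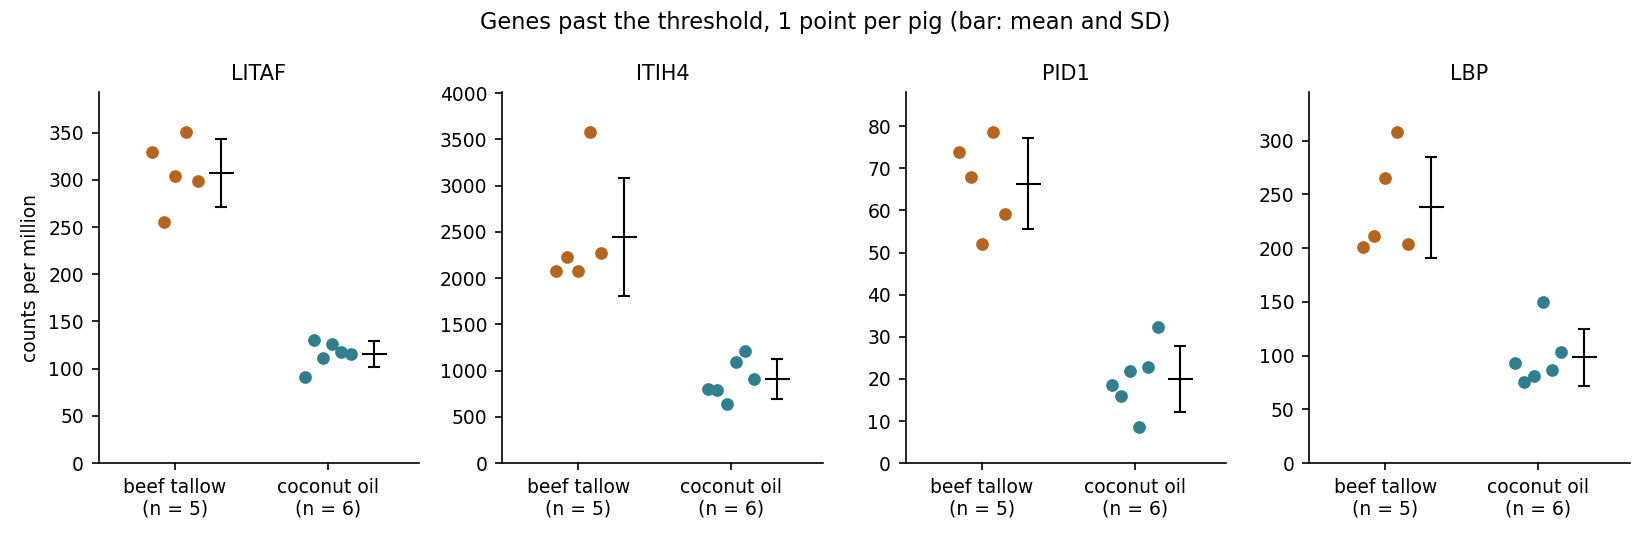
CPM of LITAF, ITIH4, PID1 and LBP (vertical axes, from 0) in each pig of group B (n = 5) and group C (n = 6), with the mean and SD beside the points. In each panel the lowest point of group B lies above the highest point of group C, for LITAF at 255 against 131 CPM.

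Most of the positive acute phase proteins, those whose plasma level goes up in inflammation, had lower mRNA levels in group C. Of 19 tested, 15 had a negative log2 fold change and the median was -0.59. ITIH4 and LBP were past the adjusted threshold. At an unadjusted p under 0.05, 10 were lower and 1 was higher, against 6.21% and 5.24% of all genes tested, and in 5 the groups did not overlap, against 0.866%. Without pig 3 of group B, 10 of 18 were lower at that level and the median was -0.54. The study names several of these genes for this pair of diets, ITIH4 and LBP among them. This list and those below were chosen with earlier results of these data known, so such counts are not independent evidence of a direction. The summed level of the list, most of which comes from haptoglobin and the fibrinogen chains, was 118117 to 152247 CPM in group B and 81331 to 97718 CPM in group C, with no overlap.

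FGA, the fibrinogen alpha chain, had 23875, 22946, 45060, 28641 and 25502 CPM in group B and from 12220 to 17879 CPM, median 14448, in group C. Pig 3 of group B was far above the rest, and the groups did not overlap. Group C differed from group B by -1.01 on the log2 scale (SE 0.20) with an edgeR adjusted p of 0.0668, and -0.80 without that pig. The other chains FGB and FGG had log2 fold changes of -0.21 and -0.55.

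HP, haptoglobin, which binds free haemoglobin, had 36206, 39214, 58172, 43333 and 35823 CPM in group B and from 25320 to 32980 CPM, median 27456, in group C. Again pig 3 was the highest of group B and no pig of group C reached group B. The log2 fold change was -0.59 (SE 0.17, edgeR adjusted p = 0.248), and -0.45 without pig 3. SERPINA3-2, an antichymotrypsin, averaged 2174 ± 523 CPM in group B and 1268 ± 203 CPM in group C without overlap, and its log2 fold change was -0.78 (adjusted p = 0.200).

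The remaining acute phase genes with an unadjusted p under 0.05 were more scattered. APCS, serum amyloid P component, had a log2 fold change of -0.77, CRP, C-reactive protein, -0.66 (-0.36 without pig 4 of group B, at 6938 CPM), the serum amyloid gene SAA2 -1.05, and FN1, fibronectin, -1.16. FN1 owed much to pig 3 of group B, at 961 CPM against 272 to 430 CPM in the other 4, and its log2 fold change was -0.73 without it. ORM1, orosomucoid, went the other way, with 61.7 to 179 CPM in group B, 139 to 365 CPM in group C and a log2 fold change of 0.99 (SE 0.28, edgeR adjusted p = 0.228). HPX, C3, CP and CD14 had log2 fold changes between -0.17 and 0.12.

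Negative acute phase proteins, which fall in inflammation, were spread around a median of 0.22 in 9 tested. TTR, the thyroxine carrier transthyretin, was the 1 member with an unadjusted p under 0.05, at 3815 ± 659 CPM in group B and 5557 ± 1168 CPM in group C (log2 fold change 0.54, edgeR adjusted p = 0.292). Complement genes showed no common direction, with 8 of 16 below 0 and a median of 0.01. Coagulation and kinin genes were divided too, 9 of 17 lying below 0, with SERPINF2, the plasmin inhibitor, at -0.92 and KLKB1, plasma kallikrein, at 0.54.

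Genes of inflammatory signalling were below 0 in 18 of 19 cases, with a median of -0.31, and 6 had an unadjusted p under 0.05, all lower in group C, against 6.21% of all genes tested. The number below 0 was 14 of 20 without pig 4 of group B and 15 of 19 without pig 1 of group C. It was 19 of 20 without pig 5 of group B. The median ran from -0.39 to -0.27 with any 1 pig left out. LITAF and PID1 were the members past the adjusted threshold. Since the study names LITAF, PID1 and IL4R for these pigs, the count is not independent evidence of a direction. IL4R, the interleukin 4 receptor, had 99.9 to 152 CPM in group B and 56.5 to 87.8 CPM in group C, without overlap, and differed by -0.65 on the log2 scale (edgeR adjusted p = 0.210). SOCS3, the feedback inhibitor of cytokine signalling, had a log2 fold change of -1.15 and its inducer STAT3 -0.90, both with few reads. Pig 3 of group B was far below its group for SOCS3, at 5.99 CPM against 33.0 to 61.7 CPM in the others. Without that pig SOCS3 had -1.46 and was past the adjusted threshold. ETS2, a transcription factor, had -0.66. The NF-kappa B subunits NFKB1 and RELA and the inhibitor NFKBIA were at -0.31, -0.08 and -0.04.

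**Figure D3:**
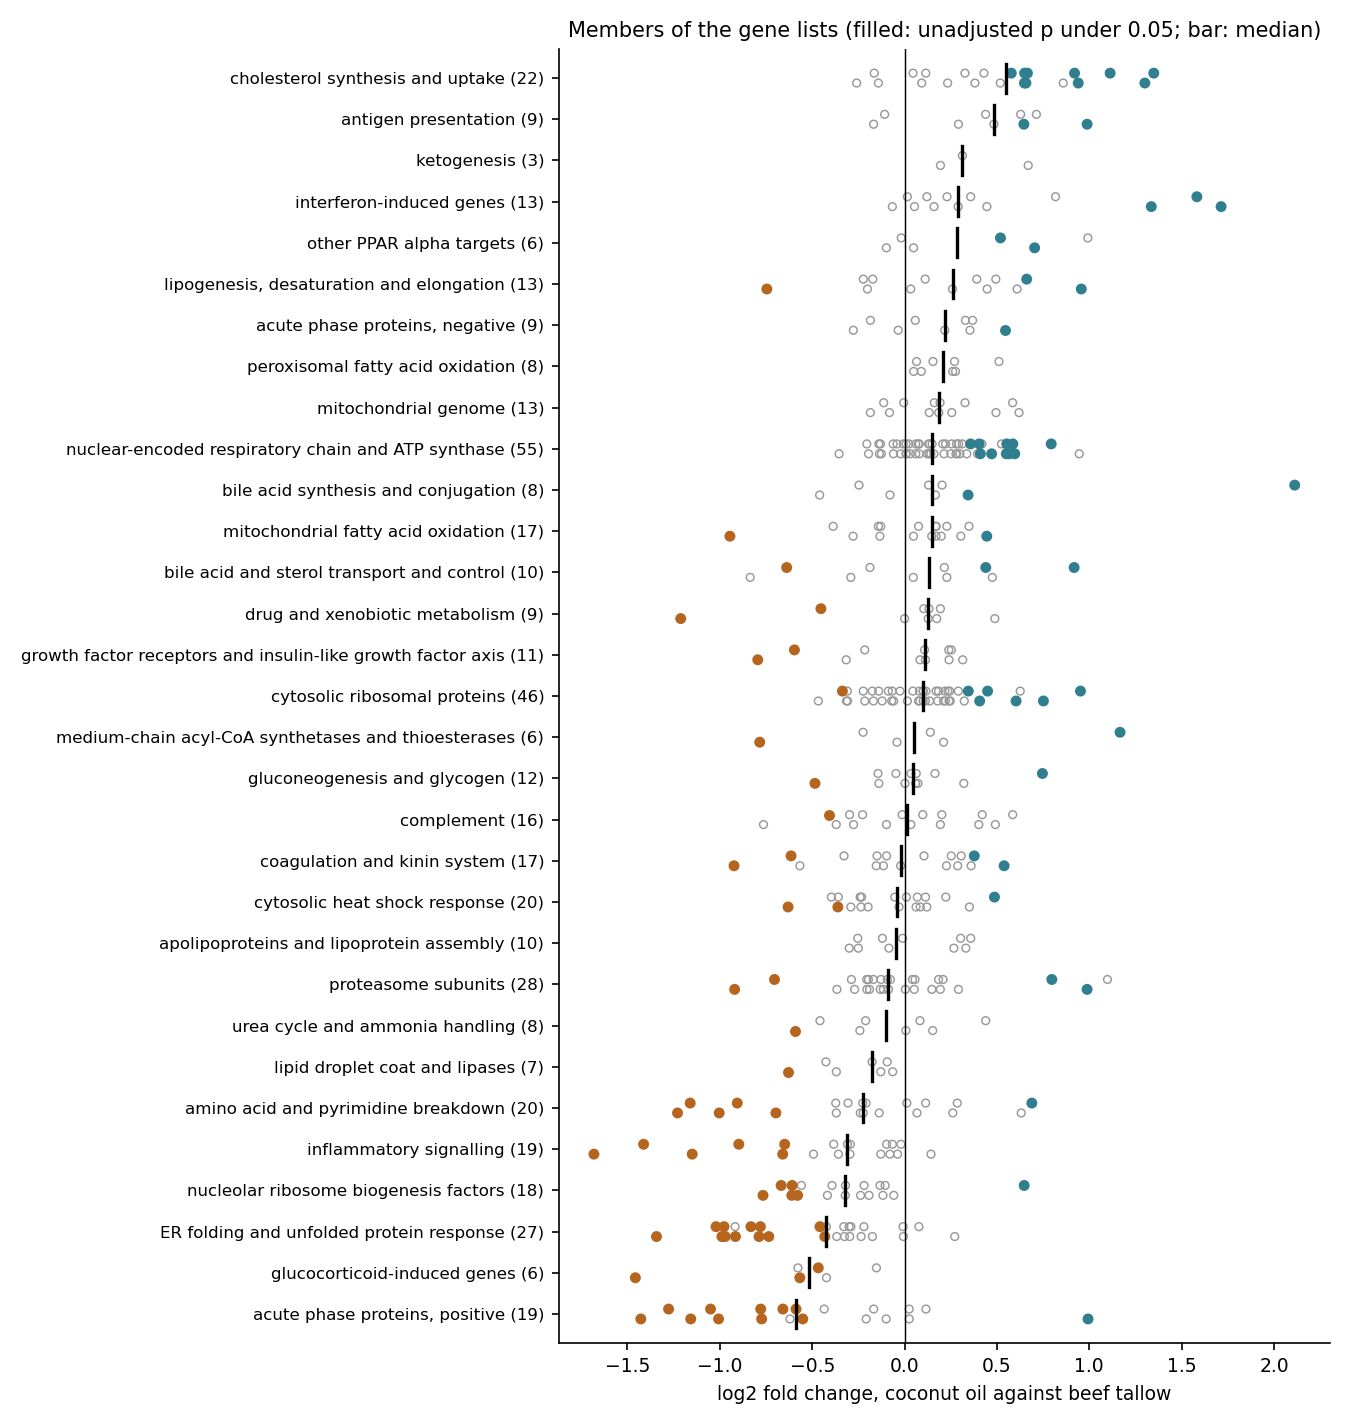
The log2 fold change of group C against group B (horizontal axis) is shown for each tested member of the 31 gene lists, with the number tested in brackets, filled where the unadjusted p was under 0.05 (brown lower, blue-green higher in group C) and with a bar at the median. Positive acute phase proteins have the lowest median, -0.59, and genes of cholesterol synthesis and uptake the highest, 0.55.

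Genes of ER folding and the UPR were lower in group C in 25 of 27 tested, with a median log2 fold change of -0.42. The list holds chaperones and folding enzymes, and also sensors, transcription factors and degradation factors of the UPR. None was past the adjusted threshold, but 12 had an unadjusted p under 0.05, all lower, against 6.21% of all genes. With any 1 pig left out, between 10 and 15 had such a p, and 12 without pig 3 of group B. Their summed level was 6891 to 9615 CPM in group B and 5227 to 7493 CPM in group C, so the ranges overlapped. Since the study names HSPA5, HYOU1 and PDIA3 for this pair of diets, the count of lower genes is not independent evidence.

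PDIA3, a disulfide isomerase that folds glycoproteins, had 283, 230, 691, 440 and 321 CPM in group B and 104 to 209 CPM, median 157, in group C. The groups did not overlap, and pig 3 was the highest of group B. Group C differed from group B by -1.34 on the log2 scale (SE 0.27, edgeR adjusted p = 0.0668), and -1.04 without pig 3. HSPA5, the main ER chaperone (BiP), had 1629, 1208, 1829, 2102 and 1545 CPM in group B and 607 to 1364 CPM, median 986, in group C, where the highest pig exceeded the lowest of group B. Its log2 fold change was -0.78 (SE 0.21, adjusted p = 0.210).

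Similar sizes were seen for the chaperones HYOU1 (log2 fold change -0.98) and HSPA13 (-0.99), for MANF, a secreted ER stress protein (-0.92), and for DNAJB11 (-0.73). The UPR sensor kinase EIF2AK3 had -1.02 with no overlap between the groups, and the transcription factor ATF5 had -0.97. The calnexin gene CANX, the transcription factor XBP1 and the oxidase ERO1A lay at 0.08, -0.01 and -0.01. Heat shock genes of the cytosol did not share the direction, since 11 of 20 were below 0 and the median was -0.04. Among them HSPB1, a small heat shock protein, had -0.63 and DNAJA1 had 0.49, or 0.29 without pig 3 of group B.

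Genes of cholesterol synthesis and uptake were higher in group C in 19 of 22 cases, with a median log2 fold change of 0.55. None passed the adjusted threshold. At an unadjusted p under 0.05, 10 were higher and 0 lower, against 5.24% and 6.21% of all genes, and the number of higher genes ran from 7 to 13 with any 1 pig left out. The summed level was 3090 to 5479 CPM in group B and 4859 to 8526 CPM in group C. Since the study lists FDFT1 for this pair of diets, the count of higher genes is not independent evidence of a direction.

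FDFT1, squalene synthase, the first enzyme committed to sterols, had 100, 151, 73.9, 103 and 124 CPM in group B and 213 to 555 CPM, median 224, in group C. Pig 5 of group C stood far above the other 5 of its group, all of which still exceeded every pig of group B. The log2 fold change was 1.35 (SE 0.27, edgeR adjusted p = 0.0668), and 1.02 without that pig. Other enzymes of the pathway with an unadjusted p under 0.05 included HMGCS1 (log2 fold change 1.11), MVD (1.30), SQLE (0.94), CYP51A1 (0.66), MSMO1 (0.58) and SC5D (0.67). ERG28, a scaffold of sterol demethylation, had 0.65. Pig 5 of group C was also the highest for HMGCS1 and MVD, and without it HMGCS1 had a log2 fold change of 0.71 and MVD of 0.87. The regulators SREBF2, SCAP and INSIG1 were at 0.09, -0.26 and 0.23.

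CYP7A1, the rate-limiting enzyme of bile acid synthesis, had the largest positive log2 fold change of the genes tested. Pigs 1 to 5 of group B had 34.2, 61.7, 11.98, 15.9 and 13.1 CPM. The 6 pigs of group C had 186, 162, 149, 117, 63.7 and 33.9 CPM. Pig 6 of group C thus lay within the range of group B, and pig 5 just above it. Group C differed from group B by 2.11 on the log2 scale (SE 0.46) with an edgeR adjusted p of 0.131, and it ran from 1.89 to 2.62 with any 1 pig left out. Without pig 2 of group B, the highest of its group, CYP7A1 was past the adjusted threshold.

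The 8 tested genes of bile acid synthesis, CYP7A1 included, had a median of 0.15, with CYP7B1 at 0.34, CYP27A1 at 0.13 and HSD3B7 at -0.46. ABCB11, the pump that exports bile salts into bile, had 276 to 384 CPM in group B and 393 to 492 CPM in group C, with no overlap and a log2 fold change of 0.44 (SE 0.14, edgeR adjusted p = 0.292). KLB, the co-receptor for FGF19 signalling to the liver, had 0.92 and ABCG8, which with ABCG5 secretes sterols into bile, -0.64. NR0B2, the repressor of CYP7A1, ranged from 15.9 to 115 CPM in group B and its log2 fold change of -0.84 had an adjusted p of 0.440.

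**Figure D4:**
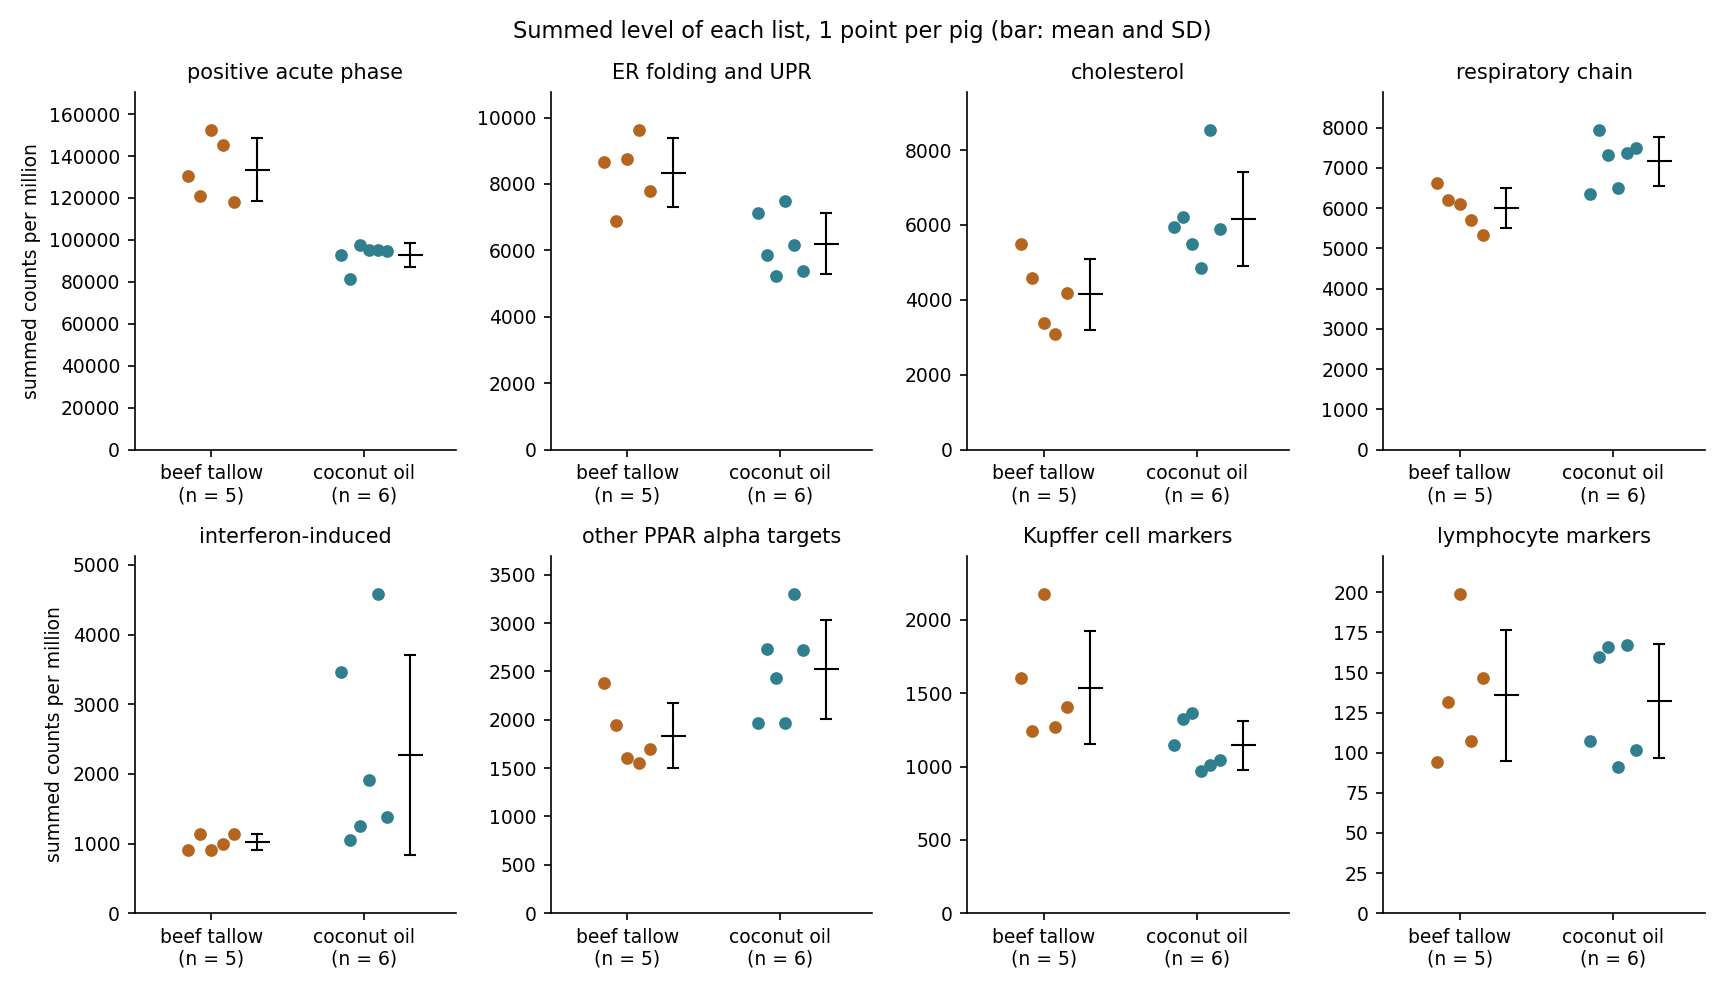
Summed CPM of 6 gene lists and 2 lists of cell type markers (vertical axes, from 0) in each pig of group B (n = 5) and group C (n = 6), with the mean and SD beside the points. Positive acute phase genes do not overlap between the groups (at least 118117 against at most 97718 CPM). Pigs 1 and 5 of group C stand high in the interferon-induced sum, and pig 3 of group B in that of Kupffer cell markers. In pig 5 of group C, IFI6 alone gives 4072 of the 4585 CPM of the interferon-induced sum. In pig 1 of group C it gives 1971 of 3457 CPM.

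Medium-chain fatty acids can enter mitochondria without the carnitine shuttle that longer ones need. Genes of mitochondrial fatty acid oxidation differed little, with a median of 0.15 in 17 tested. CPT2, the inner-membrane carnitine acyltransferase, had 64.9 to 197 CPM in group B and 23.5 to 86.4 CPM in group C (log2 fold change -0.95, edgeR adjusted p = 0.292), while CPT1A was at -0.28 and the medium-chain dehydrogenase ACADM at -0.13. Of 6 genes for medium-chain acyl-CoA synthetases and thioesterases, ACSM3, a medium-chain acyl-CoA synthetase, had 1.17 (adjusted p = 0.210) and ACOT12, an acetyl-CoA hydrolase, -0.78 (adjusted p = 0.292), with a median of 0.05. All 8 peroxisomal oxidation genes and all 3 ketogenesis genes tested were above 0, at medians of 0.21 and 0.31, and none had an unadjusted p under 0.05. Without pig 3 of group B, 6 of the 8 peroxisomal genes were above 0, at a median of 0.08, and without pig 1 of group B 5 were. The ketogenesis genes stayed above 0, with a median of 0.28 without pig 3 and 0.12 without pig 1 of group B.

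Among the other PPAR alpha targets, FABP1, the liver fatty acid binding protein, had 740 to 1223 CPM in group B and 1093 to 2002 CPM in group C, a log2 fold change of 0.70 (SE 0.19, edgeR adjusted p = 0.210). ANGPTL4, an inhibitor of lipoprotein lipase, had 0.52 (0.31 without pig 5 of group C) and PDK4, a kinase that restrains glucose oxidation, -0.02. In lipogenesis and desaturation, FADS2, the delta-6 desaturase, had 0.66, THRSP, a thyroid-responsive regulator, 0.96 and the glucose-sensing factor MLXIPL -0.75, while FASN and SCD were at -0.22 and 0.39. All 7 genes of the lipid droplet coat and lipases were below 0, at a median of -0.18, led by ABHD5, the activator of triglyceride hydrolysis (-0.63, or -0.42 without pig 4 of group B). Apolipoproteins and lipoprotein assembly genes had a median of -0.05 in 10 tested, and none had an unadjusted p under 0.05.

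HAL, histidine ammonia-lyase, opens the breakdown of histidine. It had 109, 173, 213, 150 and 205 CPM in group B and 40.1 to 99.4 CPM, median 79.0, in group C. The lowest pig of group B lay just above the highest of group C. The log2 fold change was -1.23 (SE 0.25, edgeR adjusted p = 0.0668). The same list of amino acid and pyrimidine breakdown held 4 more genes lower at an unadjusted p under 0.05, namely GNMT, which methylates glycine (-1.16), FTCD of the histidine route (-1.003), SDS, serine dehydratase (-0.91), and HPD of the tyrosine route (-0.70), and 1 higher gene, UPB1 of pyrimidine breakdown (0.69). Pig 3 of group B was far above its group for GNMT and FTCD, and without it the log2 fold change was -0.84 for GNMT and -0.64 for FTCD. The median over the 20 genes tested was -0.23. At an unadjusted p under 0.05, 5 were lower and 1 was higher, against 6.21% and 5.24% of all genes tested. In the urea cycle CPS1, its entry enzyme, had -0.59 with no overlap between the groups, or -0.41 without pig 3 of group B. The other members tested were between -0.46 and 0.44.

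SGK1, a kinase induced by glucocorticoids and salt hormones, had 129, 114, 132, 265 and 125 CPM in group B and 33.9 to 98.8 CPM, median 51.1, in group C. The groups were apart, with pig 4 high in group B. Group C differed from group B by -1.46 on the log2 scale (SE 0.29, edgeR adjusted p = 0.0668), and -1.17 without pig 4. All 6 tested genes of the glucocorticoid list were below 0, at a median of -0.52, and 3 had an unadjusted p under 0.05, against 6.21% of all genes lower in group C, the others being FKBP5 (-0.57) and ZBTB16 (-0.47). That count was 1 without pig 4 or pig 5 of group B, or pig 2 or pig 3 of group C, and 5 without pig 3 of group B.

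EGFR, the epidermal growth factor receptor, had 154, 158, 109, 145 and 165 CPM in group B and 64.3 to 101 CPM, median 83.6, in group C, with no overlap. Its log2 fold change was -0.79 (SE 0.17, edgeR adjusted p = 0.119), and it was past the adjusted threshold without pig 3 of group B. IRS1, an insulin receptor substrate, had -0.60 (-0.39 without that pig), while the receptors INSR, GHR, MET and ERBB3 were between 0.08 and 0.31. Among genes of drug metabolism, POR, the electron donor of cytochromes P450, had -1.21 and rested in part on pig 3 of group B (45.9 CPM against 9.57 to 18.6 CPM in the other 4), without which it had -0.65, and SULT2A1, a sulfotransferase of bile acids and steroids, had -0.45 without overlap. Genes of gluconeogenesis and glycogen were centred at 0.05, with UGP2, which makes UDP-glucose, at -0.49.

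Interferon-induced genes were above 0 in 12 of 13 cases, with a median of 0.29, but the levels were carried by a few pigs. IFI6, an interferon-induced mitochondrial protein, had 408, 716, 421, 540 and 655 CPM in group B and 617 to 4072 CPM, median 1179, in group C. Pigs 5, 1 and 4 of group C were high, pigs 3 and 6 lay just above group B and pig 2 lay within its range. The log2 fold change was 1.58 (SE 0.40, edgeR adjusted p = 0.208), and 1.07 without pig 5. ISG12(A) had 39.7 to 61.7 CPM in group B and 45.0 to 262.5 CPM in group C, and USP18 was at 52.5 CPM in pig 1 of group C and at no more than 15.8 CPM in the other pigs of that group. Without pig 1 of group C, 7 of 11 genes of the list were below 0 and the median was -0.10. Antigen presentation genes had a median of 0.48 in 9 tested, with PSMB8, a subunit of the immunoproteasome, at 0.99 and no overlap between the groups, and TAP2, a peptide transporter, at 0.65, or 0.43 without pig 3 of group B.

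**Figure D5:**
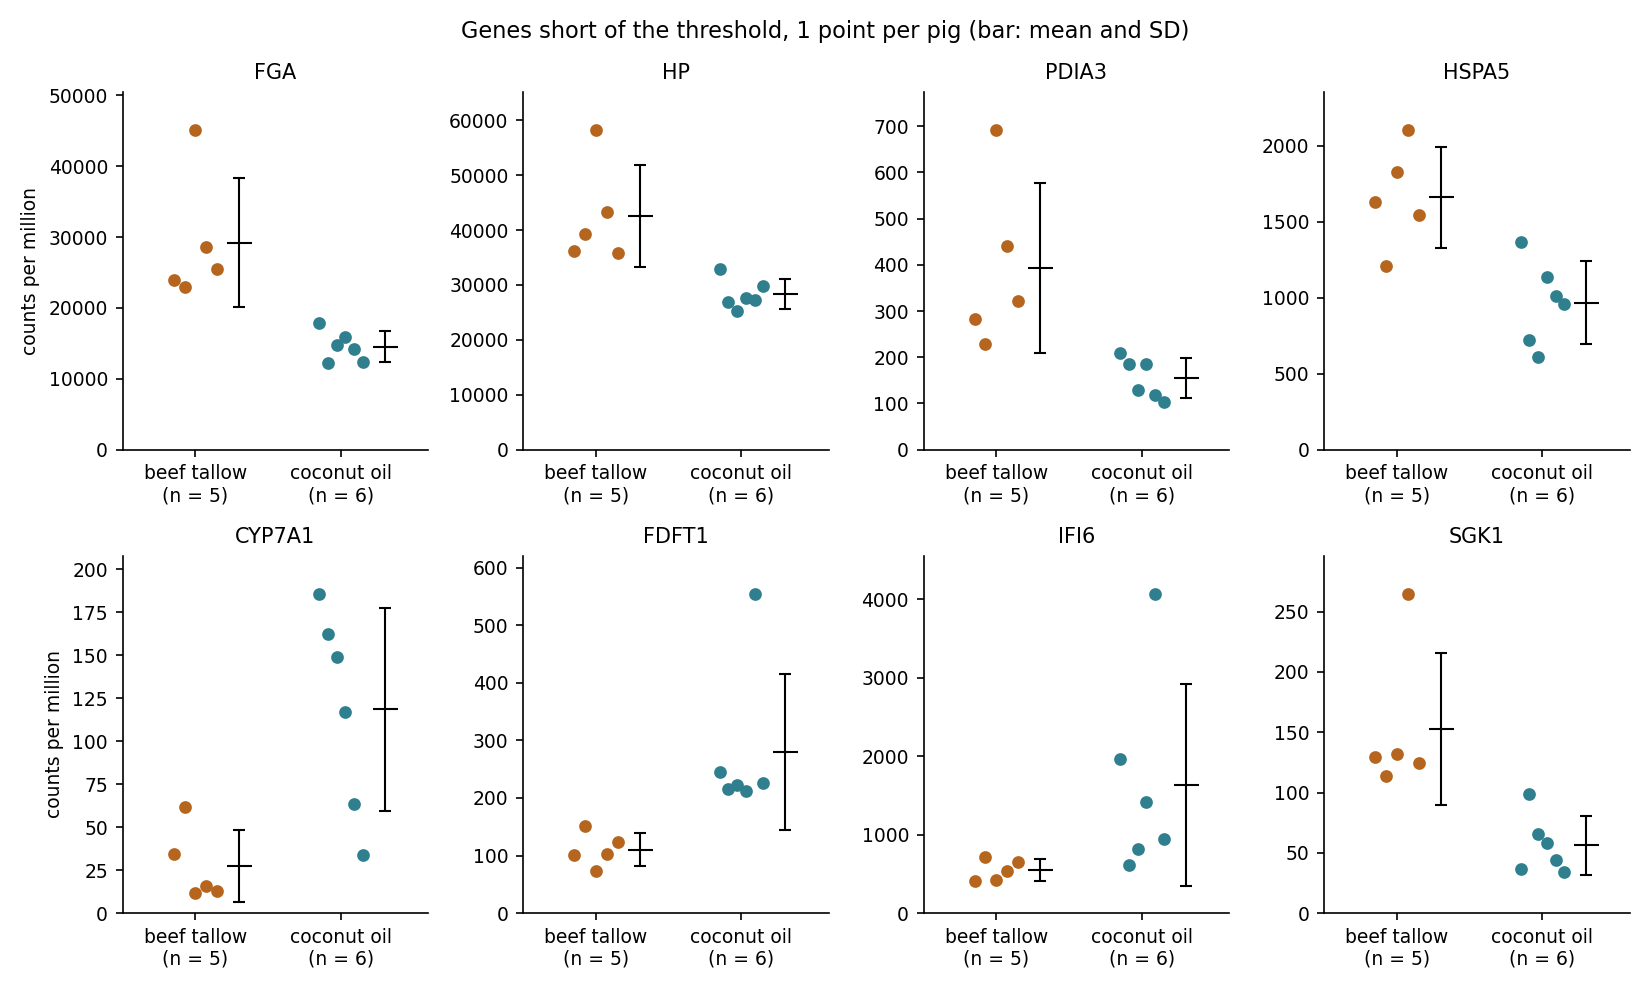
CPM of 8 genes that did not pass the adjusted threshold (vertical axes, from 0) in each pig of group B (n = 5) and group C (n = 6), with the mean and SD beside the points. FGA, HP, PDIA3, FDFT1 and SGK1 do not overlap between the groups, whereas HSPA5, CYP7A1 and IFI6 do, the highest pig of group C for IFI6 being at 4072 CPM.

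Nuclear-encoded subunits of the respiratory chain and ATP synthase were above 0 in 43 of 55 cases, with a small median of 0.15. At an unadjusted p under 0.05, 10 were higher in group C and 0 lower, against 5.24% and 6.21% of all genes tested. The number higher was 5 of 55 without pig 5 of group B, and 6 without pig 4 of group B or pig 6 of group C, which is closer to the share over all genes. ATP5IF1, the inhibitor of ATP synthase, had 104 to 144 CPM in group B and 161 to 223 CPM in group C, with no overlap and a log2 fold change of 0.57 (SE 0.15, edgeR adjusted p = 0.210), and the cytochrome oxidase subunit COX7C had 0.55. Genes of the mitochondrial genome, 13 tested, had a median of 0.18, and none had an unadjusted p under 0.05.

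Factors that assemble ribosomes in the nucleolus were below 0 in 17 of 18 cases, with a median of -0.32. NCL, nucleolin, had -0.67, RSL1D1 -0.61 with no overlap between the groups, DKC1, which modifies ribosomal RNA, -0.61, FBL, fibrillarin, -0.58 and NOP2 -0.77, whereas NOP56 had 0.65. Pig 3 of group B was the highest for NCL (332 CPM), RSL1D1 (93.9 CPM), DKC1 (87.9 CPM), FBL (55.9 CPM) and NOP2 (25.3 CPM). Without it NCL had -0.45, RSL1D1 -0.48, DKC1 -0.36, FBL -0.37, NOP2 -0.55 and NOP56 0.38. Cytosolic ribosomal proteins were centred at 0.10 over 46 genes, and 6 were higher and 1 lower at an unadjusted p under 0.05, against 5.24% and 6.21% of all genes tested, with RPL32 at 0.75 and RPS3 at -0.34. Without pig 4 of group B, pig 5 of group C or pig 6 of group C, 3 of 46 were higher, near the share over all genes. Proteasome subunits were spread around -0.09, with PSMC3 at 0.80 and PSMC1 at -0.70, or -0.26 without pig 3 of group B.

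Some genes outside the lists were among the 15 with a symbol and the smallest p in each direction. DDX39B, an RNA helicase of mRNA export, averaged 27.9 ± 7.14 CPM in group B and 11.52 ± 1.82 CPM in group C without overlap (log2 fold change -1.26, SE 0.23, edgeR adjusted p = 0.0559). TLR2, a receptor for bacterial lipoproteins, had 35.8, 21.3, 28.6, 35.1 and 26.3 CPM in group B and 8.89 to 17.2 CPM in group C, and every pig of group C lay below group B (-1.21, SE 0.23, adjusted p = 0.0668). B4GALT5, which makes lactosylceramide, and AMPD3, an AMP deaminase, had -0.90 and -0.98 without overlap, and ZNRF1, a ubiquitin ligase, -1.28 with overlap. Among genes higher in group C, OCIAD2 had 99.6 to 144 CPM in group B and 146 to 284 CPM in group C (0.80, adjusted p = 0.200), SLC39A5, a zinc transporter, had 0.64, AKR1E2, an aldo-keto reductase, 0.94, APCDD1, an inhibitor of Wnt signalling, 1.17 and ACP2, a lysosomal phosphatase, 0.65, all without overlap. ANKS4B (1.24), the membrane scaffold ANK3 (1.13), SOD1, copper-zinc superoxide dismutase (1.14), TCEA3 (1.28), RCBTB2 (0.88) and NELL2 (0.98) overlapped between the groups. A gene without an Ensembl symbol, ENSSSCG00000013514, is called PLIN5 by the study, a symbol that Ensembl gives to ENSSSCG00000013513. Its description in the study is an LRRCT domain-containing protein, so it is not treated here as PLIN5. ENSSSCG00000013514 averaged 318 ± 60.6 CPM in group B and 165 ± 28.9 CPM in group C without overlap (-0.94, adjusted p = 0.0559).

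Kupffer cell and macrophage markers, which stand for the resident phagocytes of the liver, were below 0 in 9 of 12 cases, with a median of -0.39, and 5 had an unadjusted p under 0.05, all lower in group C, against 6.21% of all genes tested. C1QA, a chain of complement C1q made by macrophages, had 572, 468, 992, 431 and 554 CPM in group B and 261 to 429 CPM in group C. Its highest value was again pig 3 of group B, and the groups lay just apart. The log2 fold change was -0.80 (SE 0.22, edgeR adjusted p = 0.210), and -0.55 without pig 3. CD163, a scavenger receptor, had -0.49, C1QB -0.76, CD68 -0.62 and TIMD4 -0.57, while MRC1, AIF1 and MARCO were at 0.01, 0.26 and 0.25. Without pig 3 of group B the median of the list was -0.21 and 3 markers were lower at an unadjusted p under 0.05, and the same count was found without pig 5 or pig 6 of group C. Summed over 13 markers with reads, the list had 1242 to 2177 CPM in group B and 972 to 1366 CPM in group C. Its part in the lower levels of LITAF, LBP and the acute phase genes was not tested. Since the study names C1QA for this pair of diets, the count of lower markers is not independent evidence of a direction.

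Markers of most other cell types overlapped between the groups. Lymphocyte markers summed to 94.1 to 199 CPM in group B and 91.2 to 167 CPM in group C, endothelial markers to 445 to 637 and 390 to 640 CPM, and stellate cell and fibroblast markers to 357 to 847 and 359 to 794 CPM. Neutrophil and monocyte markers, none of which passed the filter on low counts and of which MPO was at 0 in every pig, summed to 14.9 to 27.3 CPM in group B and 3.14 to 12.3 CPM in group C, without overlap. Their part in the results was not tested. Cholangiocyte markers reached at most 23.2 CPM and haemoglobin with ALAS2 ran from 1248 to 5007 CPM, with the ranges of the groups overlapping. The hepatocyte markers had a median of -0.12 in 9 tested.

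DESeq2, run on the same counts, gave an adjusted p for 2156 genes and called 53 of them (2.46%), 21 higher and 32 lower in group C, of which 3 were shared with edgeR (LITAF, ITIH4 and LBP). PID1 received no adjusted p from DESeq2. All 53 had the same sign in edgeR and an unadjusted edgeR p of at most 0.00742. Adjusted edgeR p was between 0.0559 and 0.292 for those edgeR did not call. Both tools compared the same counts of the same pigs, so their agreement is not independent evidence. In 19 of the 53 genes every pig of group C lay below group B, and in 8 every pig lay above. Over all genes tested these shares were 0.866% and 0.602%. Separation was favoured among the 53, since DESeq2 called them for a difference between the same pigs. FGA, PDIA3, SGK1, HAL, EGFR, HP, HSPA5, IL4R and C1QA were among the lower genes, and CYP7A1, FDFT1, OCIAD2, FABP1, ABCB11, ORM1, TTR and IFI6 among the higher ones.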

How the data were processed

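Liver RNA of 11 pigs, 5 fed beef tallow and 6 fed coconut oil, was read at mRNA 3′ ends by QuantSeq. The deposited values are raw read counts per gene, made by the authors from adapter-trimmed reads. The submitters' processing notes name FastQC, FLEXBAR 3.5.0, TopHat 2.1.1, HTSeq-count 0.11.1, the Sus scrofa 11.1 build and Ensembl 96. Reads that aligned to several places (15.4 to 38.1% of the total) or to no gene (15.9 to 30.1%) were tallied in 5 rows that name no gene, and these were left out, which lowers the values of genes with near-identical copies. Each file lists 25880 genes, and no pair of the 55 pairs of libraries was identical. Symbols were matched for 14857 identifiers through Ensembl names and for 24 through lists of the study. Coordinates are those of RefSeq for Sscrofa11.1. Some genes are not reported here.

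Counts were filtered with filterByExpr (minimum count 10, minimum total 15), scaled by TMM and tested in edgeR 4.0.16 (quasi-likelihood, R 4.3.3), with diet as the only term and Benjamini-Hochberg adjustment over all 6812 genes tested. SE is the log2 fold change divided by the square root of F. The code was tested on simulated data. The precision of low genes is limited by depth, from 705669 to 1767671 reads on genes per pig. DESeq2 1.42.0, limma-voom 3.58.1, other scalings, filters, thinning, a term for sex, a replicate block and leaving out each pig were tried as alternatives. The pigs are separate animals, so the spread is between animals.

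Named genes were those past the threshold, the 15 with a symbol and the smallest p in each direction, in each list up to 4 members with the smallest p and any other with an unadjusted p under 0.05, and genes the study names. List members given for a value near 0 were chosen after their values were seen. The members and the 31 gene lists and 9 marker lists were chosen with earlier results of these data known.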

Additional observations from a re-analysis of the deposited data

Results flagged for a closer look

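In 175 named genes each diet was checked for 1 pig far from the others of its group by Dixon's test, and 28 of 350 checks met the critical value. Chance alone flags about 1 in 20 groups. The causes were not tested.

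Pig 3 of group B was the outlying pig most often. It was high for FGA (45060 CPM, the others 22946 to 28641), GNMT (1090, the others 418 to 555), FN1 (961, the others 272 to 430), C1QA (992, the others 431 to 572), CPS1 (630, the others 345 to 399), POR (45.9, the others 9.57 to 18.6), FTCD (219, the others 70.2 to 106) and PSMC1 (186, the others 58.3 to 89.8). It was low for RPL7 (72.6, the others 158 to 177).

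Elsewhere in group B, pig 4 was high for ITIH4 (3583 CPM, the others 2074 to 2272) and SGK1 (265, the others 114 to 132). Pig 5 was low for SLC39A5 (47.1, the others 69.1 to 77.0) and high for USP18 (12.1, the others 3.11 to 4.25), and pig 1 was high for COX1 of the mitochondrial genome (5801, the others 1236 to 2383).

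In group C, pig 5 was high for 3 genes of sterol synthesis, FDFT1 (555 CPM, the others 213 to 246), HMGCS1 (535, the others 102 to 255) and MVD (47.0, the others 8.52 to 22.1), and for RPL28 (336, the others 191 to 236). Pig 1 was high for USP18 (52.5, the others 4.33 to 15.8), IFIH1, a sensor of viral RNA (124, the others 33.4 to 51.1), PER1 (151, the others 75.3 to 102) and APOH (8640, the others 4818 to 5947), and low for HPD (37.2, the others 64.9 to 77.6). Pig 2 was high for FADS2 (738, the others 473 to 550) and PSMD4 (14.1, the others 4.33 to 7.84), pig 3 for TTR (7734, the others 4546 to 5701) and RPS3 (815, the others 606 to 684), and pig 4 for LBP (150, the others 75.9 to 103).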

How the results depend on the processing

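The number of genes past an adjusted p of 0.05 was 4 in edgeR's main test and also 4 with limma-voom, with DESeq2's size factors in edgeR, with library size only and with sex as a term, where the 4 genes were the same. It was 53 with DESeq2 (21 higher, 32 lower), 22 without a filter on low counts (5 higher, 17 lower), 7 after thinning each library to 705669 reads, and 4 with at least 10 reads in every pig, where PID1 was not tested. With 1 pig left out it ran from 4 to 9, and all 4 genes were called in all 11 fits. The 9 calls came without pig 2 of group B, and added CYP7A1, DDX39B, ENSSSCG00000013514, PDIA3 and TLR2. Fitting the replicate number as a block gave 4 calls, 3 of them shared, with CYP7A1 in and PID1 at an adjusted p of 0.0584. Pigs with the same number did not deviate together (correlations of -0.26 to 0.09 over 5 pairs, 0 of them over 0.1), and 1 beef tallow pig was closest to its own number. PPP1R3B, at 0.32, ran from -0.067 (without pig 5 of group C) to 0.66 with 1 pig left out, and PLIN3, at -0.13, from -0.29 to 0.11 (without pig 5 of group B), and the causes were not tested. Of the other values for named genes, 56 crossed to past the threshold and 3348 kept direction and side. Depth limits low genes such as PID1, USP18 and STAT3, with 521, 157 and 145 reads over the 11 pigs.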
